A study of Mus musculus with 9 samples.

Results

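The baseline transcriptome of control MS1 cells was read from 3 of the 9 RNA libraries of a study on TAZ constructs, namely the libraries labelled Ctrl, replicates 1 to 3. MS1 is an endothelial cell line from mouse pancreatic islets that was immortalised with the SV40 large T antigen, and the label gives its cell type as pancreatic endothelial. The control cells carried the lentiviral backbone pCDH-puro, and the other 6 libraries, labelled TAZ4A and TAZ-CAMTA1, came from MS1 cells stably expressing those constructs and enter no value below. Every control value therefore describes a proliferating, transduced line, and the labels give no passage, density or medium and do not say whether the 3 samples came from separate cultures. The spread between the 3 libraries may thus be technical. No group was compared with another here. The question was which genes a vector-carrying MS1 cell has at high, low or no detectable level.

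Endothelial cells line all vessels. They sense vascular endothelial growth factor through Kdr, hold to each other through the cadherin Cdh5 and the adhesion molecule Pecam1, and rest on a basement membrane built largely of type IV collagen, laminins, nidogen and perlecan. Transcription factors of the ETS family, such as Erg, and of the SOXF group, such as Sox18, keep the endothelial programme on. Arteries, veins, capillaries, lymphatics and the special vessels of brain, liver, lung and endocrine glands each add genes of their own, and cultured endothelial cells are known to lose part of that set. The islet vessels from which MS1 derives are fenestrated capillaries.

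Levels are given as TPM (length-scaled shares of a library's transcripts), a unit that divides the reads of a gene by its length and so allows genes to be set beside each other. Each value after ± is the SD over the 3 control libraries (n = 3 throughout). A gene counted as expressed when it reached 1 TPM in each of the 3 libraries. It counted as high at a mean of 100 TPM or more, middle from 10 TPM, low from 1 TPM and trace below that. The libraries held 21966004, 34224715 and 32819192 reads on genes, so that 3 reads, the upper limit that a count of 0 allows, corresponded to 0.139, 0.0897 and 0.0940 CPM (reads scaled to library size, without gene length), which covers counting error only. Gene models of 2 kinds were available. TPM below rest on the iGenomes models, and for a named gene whose level by the GENCODE models differed by more than 1.5 times, that level follows in parentheses. In a bulk sample, a gene at a low level in all cells cannot be told apart from a gene at a high level in few cells.

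Of 17565 genes listed, 11357 were expressed in control MS1 cells, which is 64.7%. High levels were reached by 2182 genes (12.4%), middle levels by 6675 and low levels by 2721, while 4065 genes were at trace level and 1922 had no read in any control library. The median over all listed genes was 10.3 TPM and over expressed genes 32.3 TPM. These shares are the background against which each gene list below is to be read. The 100 highest genes took 21.3% ± 0.580 of all TPM, and 22 of them encode ribosomal proteins.

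**Figure D1:**
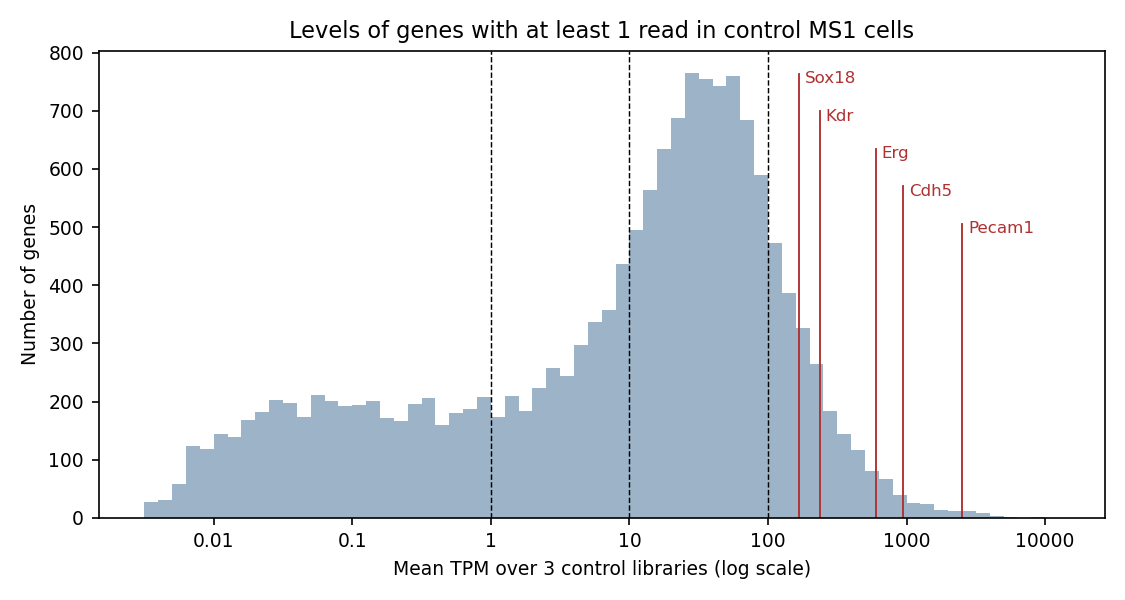
Number of genes (vertical axis) by mean TPM over the 3 control libraries (horizontal axis, log scale), for genes with at least 1 read. Dashed lines mark 1, 10 and 100 TPM, and the 5 endothelial markers (red lines, from Sox18 at 168 to Pecam1 at 2528 TPM) all lie above 100 TPM.

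Among the 25 highest genes, most serve translation, the cytoskeleton and protein folding. The translation factor Eef1a1 led at 9398 ± 260.5 TPM. The intermediate filament vimentin (Vim) followed at 8268 ± 389 (GENCODE 3835), and the galectin Lgals1 at 5142 ± 442. Actin (Actb, 5132 ± 558), cofilin (Cfl1, 2737 ± 156) and thymosin (Tmsb4x, 2529.6 ± 67.9 (GENCODE 1484)) represent the actin cytoskeleton, and Hsp90ab1 (4704 ± 123) and Fkbp1a (3351 ± 151 (GENCODE 1732)) represent protein folding. Ctla2a, an inhibitor of cathepsin proteases, stood at place 5 with 4644, 4968 and 4522 TPM in the 3 libraries. Sparc, a secreted protein that binds collagen, was the highest matrix gene at 2796 ± 101 TPM, and the iron store Fth1 (4549.6 ± 229 (GENCODE 9491)), the calcium-binding S100a6 (3449.5 ± 388) and the MHC class I light chain B2m (2801 ± 109) were also in this group. The other 12 comprise 7 genes of ribosomal proteins (Rpl32 and Rplp0 the highest), the ribosome-bound scaffold Gnb2l1 (3651 ± 159.9 (GENCODE 1076)), the elongation factor Eef2 (3198 ± 39.2) and the microRNA entries Mir5121, Mir3962 and Mir6236. Those last entries are short loci with few reads for their TPM, and poly-A libraries do not measure mature microRNAs. Genes such as Eef1a1, Fth1, Actb and those of ribosomal proteins have near-identical copies in the genome, so their counts are uncertain.

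The 5 endothelial markers were all high. Pecam1 had 2518, 2458 and 2609 TPM in replicates 1, 2 and 3 (mean 2528 ± 75.7 (GENCODE 1607)), and stood at place 26 of all genes. Cdh5 had 976, 822 and 1036 TPM, Erg 615, 596 and 599.8 TPM, Kdr 248, 209.8 and 257 TPM, and Sox18 186, 152 and 164 TPM. In each library the order was Pecam1, Cdh5, Erg, Kdr, Sox18, and the ranges of neighbours in that order did not overlap. These markers were chosen for the endothelial label, so their levels describe the cells and are no independent test of it.

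A wider list of 45 pan-endothelial genes had 40 of 44 listed genes expressed (90.9% against 64.7% of all genes). Of these, 29 were high, and the list's median was 167 TPM against 10.3 TPM. The list includes the markers above and was chosen with earlier results of these data known, so it is no separate support for the label. Surface proteins led the list. The sialomucin Cd34 reached 2289.8 ± 58.5 TPM (GENCODE 985), the protein C receptor Procr 1988 ± 54.8, the secreted Egfl7 1951 ± 40.01 (GENCODE 1134), the orphan receptor Tie1 1466 ± 15.7 and the sialomucin endomucin (Emcn) 932 ± 36.1 (GENCODE 306). With the GENCODE models Cd34, Egfl7 and Emcn lay lower, but all stayed in the high class, and the cause was not tested. The nitric oxide synthase Nos3 (467 ± 23.8), the junctional Esam (529 ± 17.1), the guidance receptor Robo4 (508 ± 14.4) and the adhesion molecule Icam2 (418 ± 9.02) were high as well.

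Of the pan-endothelial genes, 4 listed ones were not expressed. Claudin-5 (Cldn5), the main claudin of endothelial tight junctions, had 0, 1 and 0 reads in replicates 1, 2 and 3. Von Willebrand factor (Vwf), the cargo of the endothelial storage granule, had 0.9096, 0.6695 and 0.949 TPM, just under the limit of expression in every library. Its RNA was detected, with more than 100 unique reads across its introns over the 3 libraries, and it would pass a minimum of 0.5 TPM. Mmrn2, a matrix glycoprotein of vessels, had 0.547, 0.543 and 0.375 TPM. Etv2, an ETS factor of embryonic vessel formation, had no read, and Sox17, another SOXF gene, was not listed in the gene table. Not listed is not by itself a count of 0. Of 232 unlisted genes of the lists with an annotated intron, 1 (Ly6g) had unique reads across its introns in the control libraries.

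**Figure D2:**
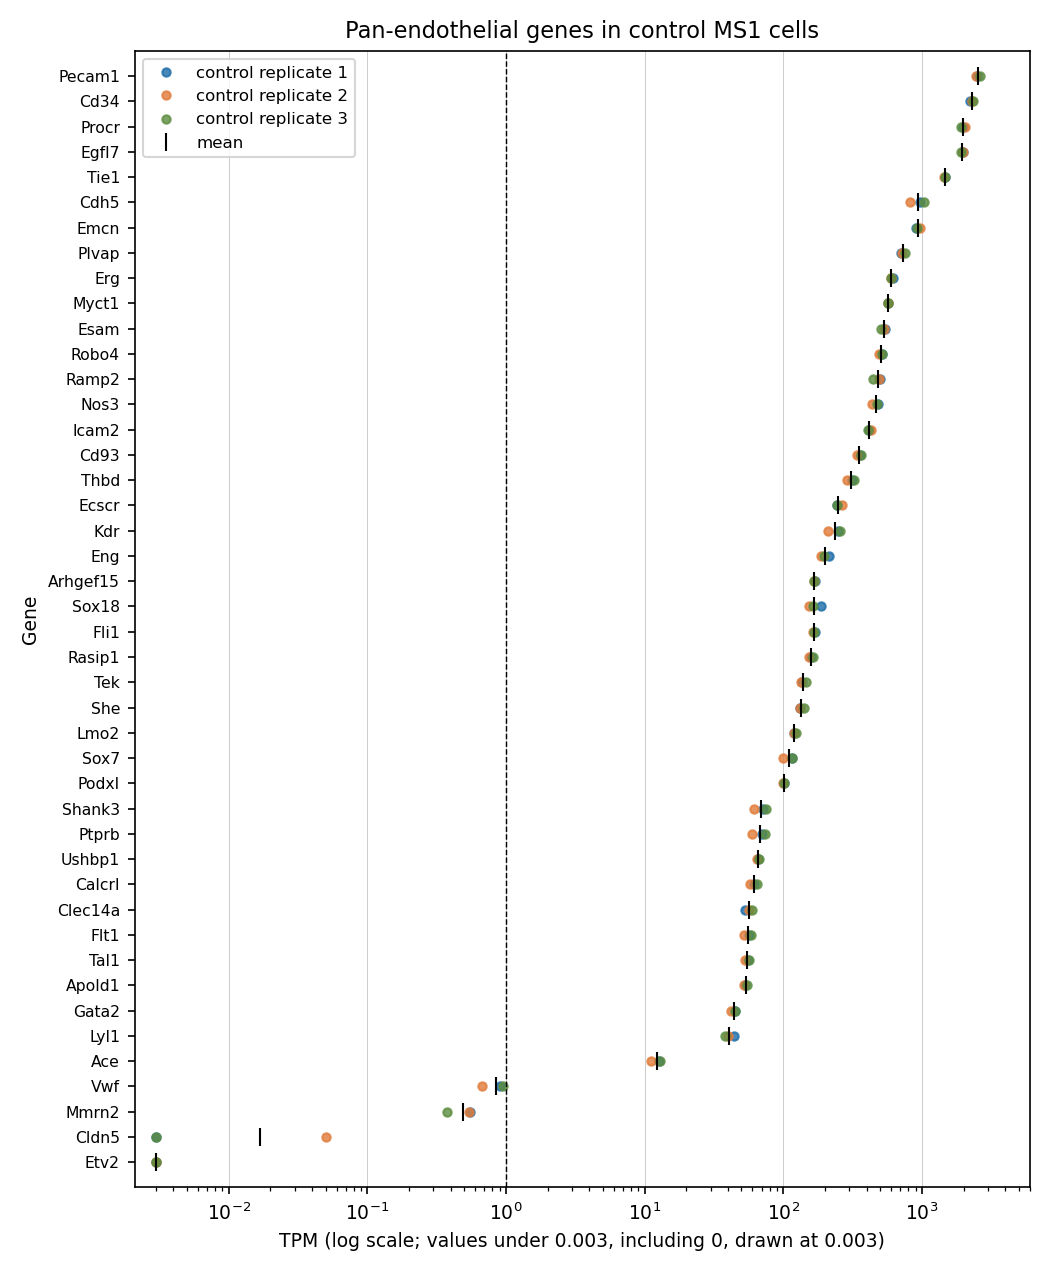
TPM (horizontal axis, log scale) of the 44 listed pan-endothelial genes in each of the 3 control libraries (coloured points) with their mean (black tick). The points of a gene lie close together, 40 genes lie to the right of the dashed line at 1 TPM, and Vwf, Mmrn2, Cldn5 and Etv2 lie to its left.

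Promoter sequences of 3 pan-endothelial genes are shown because the ETS factor Erg was the highest transcription factor among the pan-endothelial genes. The core motif of ETS factors can be looked for in them. The motif searched was AGGAAG on both strands (CTTCCT on the other strand), in the 250 bases before each RefSeq start on GRCm38.p6, and the choice of motif was made after the levels were seen. Capitals mark the matches. The 3 genes printed are the highest of the list whose window held a match, so a match in each was fixed by the choice. Higher genes without a match or without a window, Pecam1 and Procr among them, were passed over. Of 32 windows of 25 pan-endothelial genes, 46.9% held the motif, against 29.5% of all 32851 windows and 28.0% of windows of genes expressed in control MS1 cells. For the related CGGAAG the shares were, in the same order, 12.5%, 13.6% and 26.2%. A match is a description of letters only. The Cd34 window lies at chr1:194938571-194938820 (plus strand), that of Egfl7 at chr2:26580833-26581082 (plus strand) and that of Tie1 at chr4:118489850-118490099 (minus strand), each printed 5′ to 3′.
Cd34: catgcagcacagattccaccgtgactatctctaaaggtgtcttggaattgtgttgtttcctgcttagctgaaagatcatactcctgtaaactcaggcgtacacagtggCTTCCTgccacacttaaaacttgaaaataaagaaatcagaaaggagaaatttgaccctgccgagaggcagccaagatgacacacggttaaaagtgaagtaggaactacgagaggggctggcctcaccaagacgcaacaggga
Egfl7: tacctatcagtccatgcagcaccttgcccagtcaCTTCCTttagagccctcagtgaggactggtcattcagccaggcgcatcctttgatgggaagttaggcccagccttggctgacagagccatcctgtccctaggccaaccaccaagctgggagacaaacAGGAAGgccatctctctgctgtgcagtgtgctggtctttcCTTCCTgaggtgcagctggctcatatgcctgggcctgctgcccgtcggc
Tie1: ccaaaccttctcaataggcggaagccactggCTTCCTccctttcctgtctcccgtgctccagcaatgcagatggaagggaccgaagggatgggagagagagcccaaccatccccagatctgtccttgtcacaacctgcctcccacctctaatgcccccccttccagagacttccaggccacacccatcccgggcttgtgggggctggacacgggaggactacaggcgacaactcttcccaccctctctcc

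Egfl7 also hosts miR-126, a microRNA known for its role in vessel integrity. Its mature 3p strand lies at chr2:26591402-26591423 on the plus strand and is shown with its seed, bases 2 to 8, in capitals. The level of Egfl7 above is that of the host RNA, and the mature microRNA was not measured.
mmu-miR-126a-3p: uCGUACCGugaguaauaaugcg

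Most markers of other cells that a pancreatic culture could hold were under 1 TPM or not listed, with a few members of these lists, such as S100a4 and Cd68, at high level. Of 18 islet markers, 0 were expressed and 9, with Ins1, Ins2 and Sst among them, were not listed. The summed islet level ranged from 0.416 to 0.583 TPM over the libraries. Smooth muscle and pericyte markers had 2 of 16 listed genes expressed, with a sum of 190.4 to 212 TPM. These were Mcam (138 ± 5.81), which endothelial cells also carry, and Smtn (61.3 ± 5.15), whereas Acta2 had 20 reads in all, Myh11 4 reads, Rgs5 1 read and Cspg4 1 read. The pericyte receptor Pdgfrb was at low level by its mean, but did not reach 1 TPM in every library. Fibroblast markers had 4 of 14 expressed (sum 1021 to 1197 TPM), nearly all of it S100a4 at 1062 ± 91.8 TPM. The other expressed ones were Pdpn (52.2 ± 1.08), which lymphatic cells also carry, Pi16 (3.97 ± 0.2904) and the receptor Pdgfra (1.07 ± 0.0455). The matrix genes Dcn and Dpt had no read, Lum had 1 read and Col1a1 8 reads.

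Leukocyte markers had 2 of 15 expressed (sum 879.9 to 1003 TPM). Nearly all of that sum was Cd68, a lysosomal glycoprotein, at 1001, 917 and 877 TPM. The pan-leukocyte Ptprc had 7 reads, the macrophage receptor Csf1r had none and Adgre1 was not listed. Erythroid and blood stem cell markers had 4 of 14 expressed (sum 273 to 307 TPM), led by the stem cell factor receptor Kit, with Gata1 at 0 reads. Acinar and ductal markers had 2 of 14 expressed (sum 237 to 266 TPM). These were the secreted phosphoprotein Spp1 (212 ± 12.4) and the keratin Krt18 (38.7 ± 3.27), while Epcam, Cpa1 and Ptf1a were not listed and Cdh1 had 4 reads. The mesothelial, neural and adipocyte list had 2 of 11 expressed (sum 3.59 to 4.07 TPM), and the myoepithelial, liver and muscle list 0 of 7 (sum 0.294 to 0.414 TPM).

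Genes at low or no level were also looked at in another readout of the same libraries, the reads that cross an annotated intron. Of 1482 genes of the lists with an annotated intron, 804 were under 1 TPM or not listed, and 575 of these had no unique junction read in any control library. Another 226 had 1 to 100, and 3 had more than 100 over the 3 libraries (Col18a1, Vwf and the complement gene C3). All 197 high genes with introns had junction reads. Of 232 genes not listed, 1 had junction reads, the neutrophil gene Ly6g, which belongs to a family of near-identical copies, so that its reads are uncertain.

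Genes of the vascular beds were present unevenly. The share of expressed members was largest for tip cells, the leading cells of vessel sprouts, and smallest for sinusoids and high endothelial venules. The other lists lay between these. Expressed members numbered 15 of 18 listed for tip cells, 9 of 12 for fenestrated endothelium and 12 of 16 for veins. They numbered 13 of 22 for arteries, 8 of 15 for capillaries, 6 of 14 for lymphatics and 3 of 13 for sinusoids. As shares these were 83.3, 75, 75, 59.1, 53.3, 42.9 and 23.1%, beside 64.7% of all listed genes. Apart from sinusoids, each of these lists, tip cells included, was within a few genes of that background. No trait is read from those counts, and the lists are described by the levels of their members. The lists were chosen with earlier results of these data known. Some genes stand in several lists, and the lists are short.

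**Figure D3:**
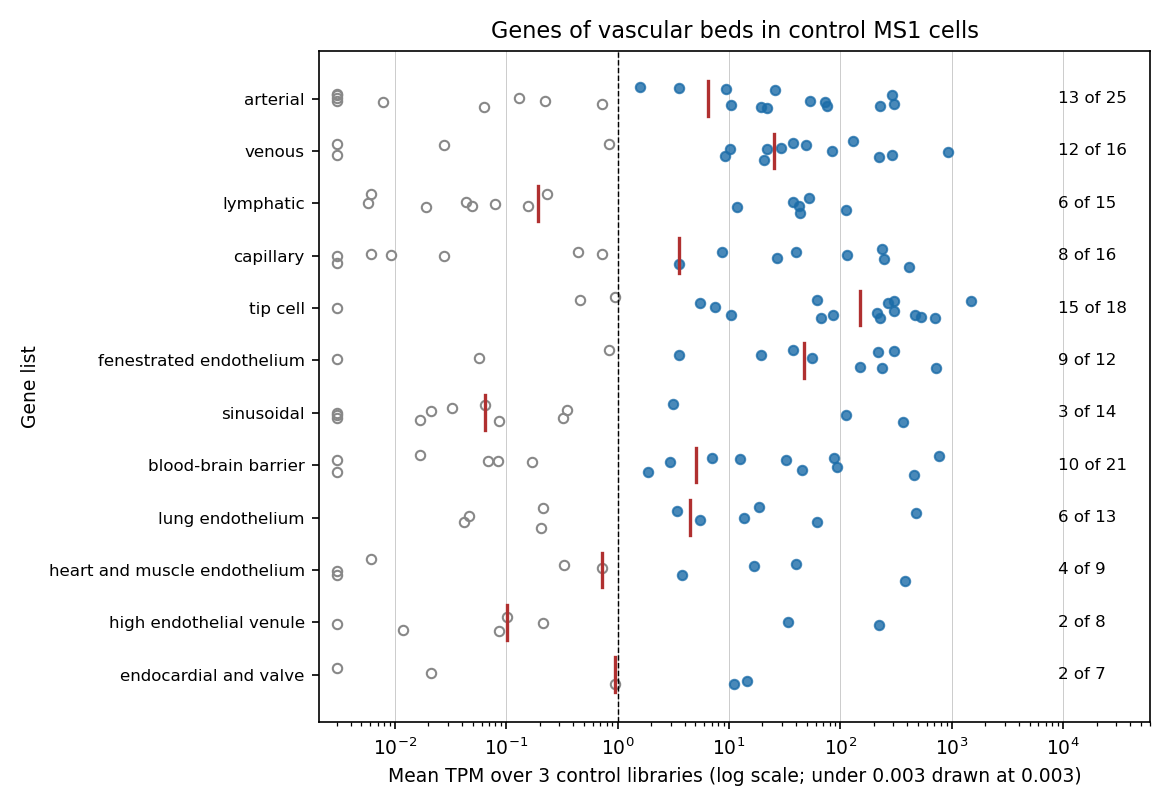
Mean TPM over 3 control libraries (horizontal axis, log scale) of the listed members of 12 vascular bed lists. Filled points are expressed genes, open points are not, red bars mark the median of each list, the dashed line is 1 TPM, and the right-hand text gives expressed genes of all entries, listed or not; tip cell genes have the highest median, 151 TPM.

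Tip cell genes had a median of 151 TPM, with 9 of 18 high. The peptide apelin (Apln) reached 1484, 1492 and 1537 TPM, the ligand Angpt2 of the receptor Tek 715, 685 and 713 TPM, and placental growth factor (Pgf) 515, 558 and 515 TPM. The urokinase receptor Plaur (469.6 ± 7.75), the proteoglycan Esm1 (302 ± 5.17) and the chemokine receptor Cxcr4 (302 ± 24.2) followed. The member without a read was Igfbp3, a binding protein of insulin-like growth factors, and Nid2 had 81 reads and Lcp2 112 reads.

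Fenestrated endothelium, the kind found in pancreatic islets, is marked by Plvap, the protein of the diaphragms that span fenestrae. Plvap had 702, 719.5 and 755 TPM. The lipid phosphatases Ppap2b (219.9 ± 13.4) and Ppap2a (150.2 ± 2.25) were high, as were Esm1 and Kdr, and the list's median was 46.8 TPM. Ehd3 was low at 3.56 TPM. The listed members not expressed were Col13a1 with 6 reads, Igfbp3 with no read and Vwf, which lay just under 1 TPM.

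Both arterial and venous regulators were expressed in the same cultures. On the venous side, the vein-determining nuclear receptor Nr2f2 had 51.8, 47.3 and 47.5 TPM and the ephrin receptor Ephb4 129.5, 125 and 135 TPM. P-selectin (Selp) reached 223 ± 13.3 and carboxypeptidase E (Cpe) 289 ± 9.02. The atypical chemokine receptor Ackr1, which marks post-capillary venules, and the transporter Slc38a5 had no read, and the apelin receptor Aplnr had 4 reads.

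On the arterial side, the Notch ligand Dll4 had 231, 214 and 234 TPM and the Notch target Hes1 281, 299 and 298 TPM. Cxcr4 had 329, 284 and 292 TPM, its ligand Cxcl12 52.9 ± 3.26, and the arterial ephrin Efnb2 21.9 ± 1.76. The arterial connexins Gja4 and Gja5, the Notch target Hey1 and the lymphangiogenic Vegfc had no read in any of the libraries, and Hey2 had 21 reads, Bmx 1 read and Sema3g 17 reads. The arterial median was 6.46 TPM and the venous median 25.6 TPM, beside 10.3 TPM over all listed genes. The lists were chosen, and the venous one also holds the pan-endothelial Emcn, so no lean to either side is read from these medians. Efnb2 lay below Ephb4, its receptor, in each library.

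Lymphatic identity rests on the factor Prox1, which had 1 read in all 3 libraries together. Lyve1, the hyaluronan receptor of lymphatics and sinusoids, had 118, 104 and 118 TPM, podoplanin (Pdpn) 52.2 ± 1.08, and the receptor Flt4 42.5 ± 2.98. Foxc2 and Mmrn1 had 8 reads each, and Ccl21a was not listed. The 6 expressed members, with Gata2 (43.9 ± 1.75), Nrp2 (37.8 ± 2.48) and Sned1 (11.8 ± 2.83 (GENCODE 23.9)) among them, stood beside 8 that were not.

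Capillary genes ranged from high to no read. The lipase-binding protein Gpihbp1 had 248 ± 22.9 TPM (GENCODE 99.9), the scaffold Slc9a3r2 416 ± 11.6 and Sparcl1 116 ± 4.64. The fatty acid binding proteins Fabp4 and Fabp5 had 39.9 ± 2.71 (GENCODE 6.92) and 8.74 ± 0.8896 (GENCODE 2.84), and the fatty acid receptor Cd36 and the lipase Lpl had 1 read each. Meox2, a homeobox factor of heart and muscle capillaries, had no read and its partner Tcf15 27 reads. In the list of heart and muscle endothelium, 4 of 9 were expressed, led by Myadm at 379.7 ± 33.3 TPM.

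Of sinusoidal genes, the scavenger receptor Stab1 was high with 382, 334 and 376 TPM, while its relative Stab2 had 19 reads, Mrc1 7 reads, and the C-type lectin Clec4g and the Fc receptor Fcgr2b none. The liver sinusoid factor Gata4 had 3 reads. Blood-brain barrier genes had 10 of 16 listed members expressed. These were led by Ly6c1 (774 ± 40.3), the glucose transporter Slc2a1 (459 ± 11.4) and the transferrin receptor Tfrc (93.2 ± 5.83), but the lipid transporter Mfsd2a had 5 reads, the Wnt effector Lef1 none, and Slco1c1, Foxq1 and Foxf2 were not listed. Ly6c1 belongs to a family of close copies, so its reads are uncertain.

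Lung endothelium genes had 6 of 10 expressed. The forkhead factor Foxf1 had 18.6 ± 0.537 TPM and Tbx3 13.7 ± 0.0597, whereas Tmem100 had 3 reads and Ednrb 7 reads. High endothelial venules were represented by the selectins Selp and Sele (33.8 ± 1.89) but not by Glycam1 (no read), Chst4 (1 read) or Fut7 (8 reads), with 2 of 7 expressed. Of endocardial genes, Nfatc1 (14.6 ± 1.13) and Nrg1 (11.2 ± 1.71) were expressed, and Tbx20 had no read.

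All 5 VEGF receptors and co-receptors were expressed. Kdr, the main signalling receptor, was highest at 238 ± 25.1 TPM, followed by Flt1, which binds and limits VEGF, at 55.8 ± 3.35, Flt4 at 42.5 ± 2.98, neuropilin Nrp2 at 37.8 ± 2.48 and Nrp1 at 19.4 ± 1.09. The ranges of Flt4 and Nrp2 overlapped, and those of all other neighbours did not. Among ligands, Pgf had 529 ± 24.6 and Vegfb 167 ± 12.8, both of which bind Flt1, whereas Vegfa had 6.78, 6.79 and 7.74 TPM, Figf 54 reads in all and Vegfc none.

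In the angiopoietin system, Tie1 (1477, 1448 and 1472 TPM) lay above Angpt2 (704 ± 16.8) and the angiopoietin receptor Tek (139 ± 6.305), with no overlap between these. The Tek phosphatase Ptprb had 67.9 ± 7.52. Angpt1, which perivascular cells make, had 4 reads and Angpt4 none. In the apelin and adrenomedullin system, the ligands were present at 1504 ± 28.7 (Apln) and 215 ± 5.23 TPM (Adm). The adrenomedullin receptor Calcrl (61.3 ± 3.38) and its partner Ramp2 (481 ± 30.6 (GENCODE 224)) were expressed too, while the apelin receptor Aplnr was at 4 reads.

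Of 49 listed receptor tyrosine kinases, 27 were expressed and 6 high. After Tie1 came Kit (283, 262 and 295 TPM), Kdr, the clearance receptor Mertk (198 ± 16.9), Tek and Ephb4. The Kit ligand Kitl was expressed as well, at 91.7 ± 7.37 TPM. The epidermal growth factor receptor Egfr, Fgfr2, Csf1r and Ret had no read, and Axl, a relative of Mertk, had 27 reads over all 3 libraries. Fgfr1 was the highest FGF receptor at 33.3 ± 1.94 TPM, while only Fgf16 (9.46 ± 0.597 (GENCODE 22.2)) of 16 listed FGF ligands was expressed and Fgf2 had 1 read. The platelet-derived ligand Pdgfb, which recruits pericytes, had 86.6 ± 3.54 TPM, and its receptor Pdgfrb 1.12 ± 0.1297. Among other growth factors, the matricellular Cyr61 (674 ± 6.898) and Ctgf (402 ± 4.57) were the highest, and Hgf had 3 reads.

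Of the Notch receptors and ligands, 6 of 9 were expressed. Dll4 led, and Notch4 (75.9, 70.2 and 81.8 TPM) and Notch1 (78.9, 62.5 and 78.9 TPM) overlapped. Dll1 had 33.8 ± 2.25, Jag1 9.32 ± 0.634 and Notch2 3.47 ± 0.253, and the mural receptor Notch3 had 42 reads. Targets were split: Hes1 and Nrarp (134 ± 2.07) were high, while Hey1 and Heyl had no read.

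The TGF-beta and BMP receptors were represented by 10 of 14 genes. Tgfbr2 had 265, 238 and 272 TPM and endoglin (Eng), a co-receptor of endothelial cells, 212, 186 and 198 TPM. The endothelial type I receptor Acvrl1 had 45.4 ± 1.53, Tgfbr1 29.9 ± 1.79, Acvr1 29.8 ± 0.962 and the type II receptor Bmpr2 22.6 ± 2.64. The type I receptor Bmpr1a had 1 read in the 3 libraries together and Bmpr1b none. Among ligands, Bmp4 was high at 275, 269 and 265 TPM, and Bmp2, Bmp6 and Bmp7 had no read. Tgfb1 had 40.99 ± 3.48 and Gdf15 76.4 ± 1.64.

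Of the Wnt system, 11 of 13 receptors and co-receptors were expressed but 2 of 15 ligands. The co-receptors Lrp5 (137 ± 9.29 (GENCODE 87.2)) and Lrp6 (58.9 ± 4.82) and the adhesion GPCR Gpr124 (58.2 ± 2.83) lay above Fzd4 (13.98 ± 2.76), the highest Frizzled. Wnt5a (6.75 ± 0.889) and Wnt9a (3.78 ± 0.121) were the expressed ligands. Of 8 ephrins, Efna1 (148 ± 8.99) was the highest.

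Of 47 listed vasoactive and lipid GPCRs, 17 were expressed. The sphingosine 1-phosphate receptor S1pr1, which keeps endothelial barriers tight, was the highest with 842, 812 and 884 TPM, and S1pr3 had no read. The adhesion GPCRs Gpr116 (184 ± 10.7) and Eltd1 (164 ± 7.49), the lysophosphatidic acid receptor Lpar6 (161 ± 2.93 (GENCODE 89.5)) and the thrombin receptor F2r (142 ± 4.902) followed. Receptors for histamine (Hrh1), bradykinin (Bdkrb2), angiotensin (Agtr1a), prostacyclin (Ptgir) and endothelin A (Ednra) had no read. On the side of vasoactive enzymes, caveolin-1 (Cav1, 872 ± 34.8), Nos3 (467 ± 23.8) and the endothelin-converting enzyme Ece1 (239 ± 7.42) were high, and endothelin itself (Edn1) had 22.8 ± 0.509. Prostacyclin synthase (Ptgis) had 34 reads.

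Receptors of the TNF, interferon and interleukin families, listed together with Toll-like receptors, were expressed in a larger share than cytokine ligands. Of those receptors, 24 of 30 were expressed, with Tnfrsf12a (597 ± 44.2) and Tnfrsf1a (314 ± 4.19) highest. The endotoxin receptor Tlr4 (184 ± 18.7) and Ltbr (179.6) came next, with overlapping ranges. Of cytokine ligands, 8 of 24 were expressed, with Mif at 366 ± 10.7 TPM, and Tnf had 1 read and Il1b none. Of chemokine receptors, Cxcr4 and Ackr3 (34.4 ± 0.806) were the expressed ones among 14 listed. Of chemokine ligands, 9 of 26 listed were expressed. The monocyte attractant Ccl2 had 370.4, 335 and 344 TPM and made up 63.3% ± 1.36 of the summed TPM of chemokine ligands.

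Guidance receptors had 11 of 20 listed members expressed. Robo4 and Plxnd1 (244 ± 18.3), both endothelial guidance receptors, and neogenin (Neo1, 323 ± 24.3) were high. Robo1, Dcc and Unc5c had no read, and the netrin receptor Unc5b had 10.5 ± 0.703. Of ligands, 11 of 27 were expressed, led by the semaphorins Sema4c (97.2 ± 0.865), Sema3f (64.99 ± 4.04) and Sema6b (57.1 ± 3.56), and none was high.

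Among adherens junction genes, Cdh5 made up 77.3% ± 1.62 of the summed TPM of classical cadherins and nectins. Nectin Pvrl2 (122 ± 4.62) and the lipid-anchored Cdh13 (115 ± 10.2 (GENCODE 45.03)) were next, N-cadherin (Cdh2) had 14.5, 14.1 and 14.9 TPM and E-cadherin (Cdh1) 4 reads. Of the catenins and adaptors, 14 of 15 were expressed, with beta-catenin (Ctnnb1) at 977 ± 49.9, alpha-catenin (Ctnna1) at 387 ± 16.4 and p120 (Ctnnd1) at 241 ± 12.9.

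Of 17 listed tight junction genes other than claudins, 12 were expressed. Of 16 listed claudins, 7 were expressed and 0 high. Cldn15 had 63.5, 66.6 and 62.4 TPM, Cldn25 45.03, 44.4 and 47.7 TPM and Cldn12 24.3, 25.02 and 25.3 TPM, with no overlap of their ranges. Cldn1 had 1 read, as had Cldn5, and occludin (Ocln) had 1.86 ± 0.303. The adhesion molecules Esam (529 ± 17.1) and F11r (472 ± 7.2) and the scaffolds Cgnl1 (428 ± 22.6) and Tjp1 (282 ± 28.98) were high. Jam2 had 11 reads while Jam3 had 136 ± 3.63.

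A pair of connexins, the subunits of gap junctions, was expressed. Gja1 had 147, 132 and 147 TPM and made up 87.1% ± 1.06 of the connexin TPM, and Gjc1 had 20.7 ± 0.802. Of the other 9 listed, 5 had no read, Gja4 and Gja5 among them. Of desmosome genes, 4 of 11 listed were expressed, the plaque proteins Jup (26.2 ± 2.05), Pkp4 (23.8 ± 0.373) and Pkp2 (14.8 ± 0.817 (GENCODE 9.64)) and periplakin (Ppl, 15.3 ± 0.377). The others were at or near 0, with Dsc2 at 2 reads, desmoplakin (Dsp) at none and Dsg2 not listed.

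Of leukocyte adhesion molecules, 11 of 16 listed were expressed (68.8%, near the 64.7% of all genes), and the labels name no stimulus. P-selectin (Selp) had 236, 209 and 225 TPM, Vcam1 80.8, 82.4 and 89.8 TPM, E-selectin (Sele) 35.02, 31.6 and 34.8 TPM and Icam1 29.7, 27.1 and 30.8 TPM. P-selectin thus lay above the other inducible adhesion molecules in every library, and Icam2 (418 ± 9.02) above P-selectin. Selp is stored with Vwf in endothelial granules, and Vwf was at 0.843 ± 0.151.

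**Figure D4:**
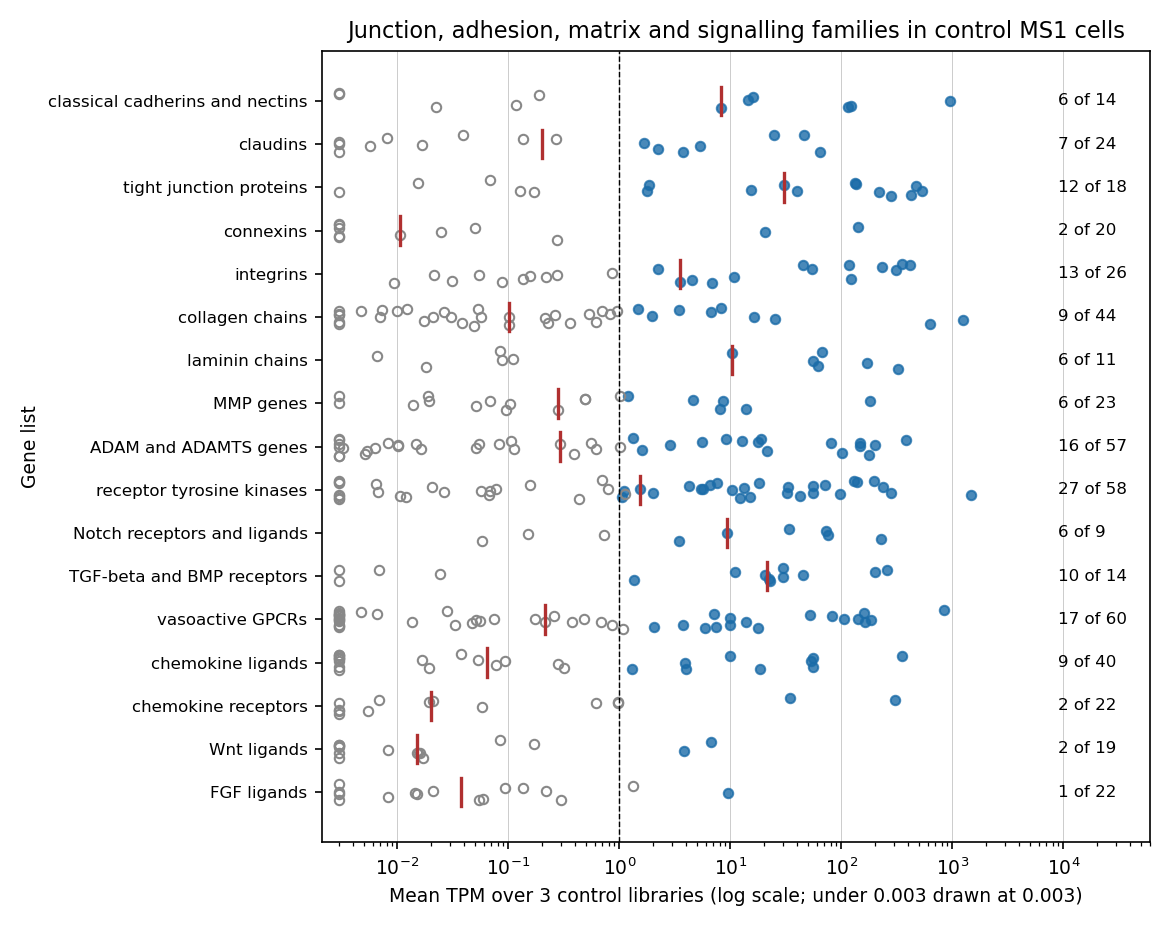
Mean TPM over 3 control libraries (horizontal axis, log scale) of the listed members of 17 families. Filled points are expressed genes, open points are not, red bars mark medians, the dashed line is 1 TPM, and the right-hand text gives expressed genes of all entries; connexins, collagens, chemokine receptors, Wnt and FGF ligands each rest on few expressed members.

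Of 23 listed integrins, 13 were expressed. The common beta chain Itgb1 led with 415, 406 and 431 TPM. Its partners Itga3 (353 ± 14.03) and Itga6 (231 ± 19.4), which bind laminin, and Itga5 (309.5 ± 12.6), which binds fibronectin, were high, with Itga7 (122 ± 4.27) and Itgb3 (117 ± 1.53) below and overlapping. The collagen-binding Itga1 had 54.1 ± 7.97 and Itga2 20 reads. Itgb5 had 2.25 ± 0.156, and Itgb8 was not listed.

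High levels were reached by 6 of 21 listed basement membrane genes and by 6 of 45 listed glycoprotein and elastic fibre genes, with Sparc in both lists. Of all listed genes, 12.4% were high. The type IV collagen chains Col4a1 (1231, 1218 and 1326 TPM) and Col4a2 (601, 631 and 663 TPM), which form 1 trimer together, made up 96.5% ± 0.0538 of the summed TPM of 38 listed collagen chains. Only 9 chains were expressed, the next being Col5a1 (25.4 ± 1.496) and Col8a1 (16.4 ± 0.682). Type I collagen was near 0, with Col1a1 at 8 reads and Col1a2 at 14 reads. Col18a1 and Col15a1, the multiplexin chains of vessel basement membranes, had 204 reads and 67 reads in all and were not expressed by the limit of 1 TPM.

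Laminin chains for the laminins of endothelial basement membranes were all present. The gamma chain Lamc1 had 332, 278 and 358 TPM, the alpha chains Lama4 172 ± 12.6 TPM (GENCODE 103) and Lama5 55.5 ± 5.45, and the beta chain Lamb1 66.7 ± 4.43. The ranges of Lamb1, Lamb2 (61.5 ± 5.18) and Lama5 overlapped in that order. Lama2 had 2 reads and Lama1 39 reads. Nidogen Nid1 (269 ± 29.1), perlecan (Hspg2, 66.1 ± 9.18) and the collagen crosslinker Pxdn (187 ± 19.3) complete this set, and agrin (Agrn) had 3.26 ± 0.156.

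Among other glycoproteins, 22 of 45 were expressed. Thrombospondin Thbs1 had 342, 305 and 355 TPM, fibronectin (Fn1) 307, 260.4 and 334 TPM, Spp1 198, 218 and 220.5 TPM and elastin (Eln) 65.9 ± 3.09. Igfbp7, a secreted protein abundant in many endothelial cells, had 3 reads, the crosslinker Lox 1 read and periostin (Postn) none. The Lox relative Loxl2 had 67.5 ± 2.21 TPM.

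Fibronectin RNA can include or skip the EDA and EDB exons, which are known from embryonic and remodelling tissue and are skipped in plasma fibronectin. On chromosome 1 of GRCm38 (GENCODE vM21), the EDA exon of 270 bases lies at 71603660 to 71603929, and the EDB exon of 273 bases at 71613763 to 71614035. From junction reads, EDA was included in 42.8, 41.6 and 41.7% of Fn1 RNA in the 3 libraries (42.0 ± 0.664%). EDB was included in 13.3, 10.9 and 8.33% (10.8 ± 2.48%). The skip counts behind these were 127, 162 and 189 reads for EDA and 137, 192 and 264 for EDB. Inclusion of EDA was above that of EDB in every library.

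Heparan sulfate and glycocalyx genes were expressed in 17 of 22 cases. Beside Cd34, Emcn and Esm1, these were led by serglycin (Srgn, 158 ± 16.9 (GENCODE 82.7)), the chain polymerase Ext2 (136 ± 5.43 (GENCODE 63.99)), podocalyxin (Podxl, 100.5 ± 1.07) and the hyaluronan receptor Cd44 (100.02 ± 3.26). Syndecans Sdc1 to Sdc4 were all expressed, between 9.39 (Sdc4) and 31 TPM (Sdc1). The glypican Gpc1 had 1 read and the hyaluronan synthase Has2 5 reads.

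Matrix proteases were few but included membrane-bound forms. Mmp14 had 177, 185 and 182 TPM and made up 82.4% ± 0.420 of the summed TPM of 19 listed matrix metalloproteinases, with Mmp2 at 8.07 ± 0.207 and Mmp9 at 2 reads. Of the ADAM and ADAMTS genes 16 of 41 were expressed, led by Adamts1 (383 ± 18.9) and the sheddases Adam10 (203 ± 15.8), Adam9 (176 ± 10.8) and Adam17 (147 ± 7.43). The inhibitors Timp2 (269.6 ± 13.5), Timp3 (159.8 ± 6.68) and Timp1 (103 ± 5.95) were high and Timp4 had no read.

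The highest coagulation genes were fibrinolytic and anticoagulant ones, with 13 of 26 expressed. Urokinase (Plau) was among the highest genes of the cells with 2201, 2228 and 2227 TPM, above its receptor Plaur (469.6 ± 7.75) and its relative Plat (260.1 ± 11.6). The plasmin-binding pair Anxa2 (1525 ± 46.4 (GENCODE 673)) and S100a10 (1367 ± 64.3 (GENCODE 878)), Procr (1988 ± 54.8) and thrombomodulin (Thbd, 309 ± 17.5) were high. Tissue factor (F3), which starts coagulation, had 38 reads, while factor VIII (F8), which endothelial cells make, had 233, 199 and 273 TPM. Of the ectoenzymes that turn ATP into adenosine, Entpd1 had 81.6 ± 2.11 and Nt5e no read. Among complement regulators, 6 of 13 were expressed, with Cr1l at 205 ± 2.104 (GENCODE 50.8) and Cd55 at 4.09 ± 0.366.

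ETS factors were expressed in 16 of 24 cases. Erg made up 29.1% ± 0.475 of their summed TPM. Ets2 had 389.5, 375 and 383 TPM, Elk3 226 ± 9.31, Fli1 171, 163 and 166 TPM, Ets1 131 ± 6.75 and Elf1 102 ± 5.02. The blood factor Spi1 had 2 reads and Etv2 none. Of SOX factors, Sox18 and Sox7 (116, 100.3 and 116 TPM) made up 74.2% ± 0.701 of the family's TPM, and Sox18 lay above Sox7 without overlap. Sox4 had 75.3 ± 5.67 (GENCODE 163) and Sox9 2 reads.

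Of the GATA and SCL complex factors, many of which endothelium shares with blood, 12 of 17 were expressed. Lmo2 (121 ± 3.21), its partner Ldb1 (114 ± 1.35), Tal1 (54.9 ± 1.83), Gata2 (43.9 ± 1.75) and Lyl1 (40.6 ± 3.098) were all present. Lmo1, a relative of Lmo2 best known outside endothelium, had 86.6, 85.6 and 84.4 TPM. Zfpm1 (7.43 ± 1.27), Gata3 (5.11 ± 0.578) and Runx1 (4.48 ± 0.205), the factor of blood-forming endothelium, were low, the erythroid Gata1 had no read and Gata6 was not listed. Of KLF factors, 12 of 15 were expressed, led by the flow-responsive Klf2 (455, 453 and 451 TPM), Klf6 (282 ± 19.7) and Klf10 (176 ± 8.19), with Klf4 at 98.1 ± 8.97. These were levels without flow in the labels.

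Forkhead factors had 15 of 27 listed members expressed. The cell cycle factor Foxm1 (122 ± 6.45) was the high one, Foxo1 had 49.4 ± 1.79, and the vascular Foxc1 and Foxc2 had 17 reads and 8 reads in all. Among other homeobox factors, the endothelial and blood regulator Hhex had 277, 282 and 282 TPM, Meis2 111 ± 6.03 (GENCODE 62.7) and Meox1 95.3, 97.3 and 105 TPM, while its relative Meox2 had no read. Nuclear receptors were expressed in 24 of 40 cases and none was high. Nr4a1 (97.7 ± 2.18), Nr1d2 (85.5 ± 6.82) and the glucocorticoid receptor Nr3c1 (53.6 ± 4.73) led.

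Genes of the Hippo pathway's effectors are given because the study's constructs derive from TAZ. In control cells Wwtr1, which encodes TAZ, had 278, 267 and 295 TPM, and Yap1 236, 232 and 245 TPM, a mean of 237 ± 6.63 TPM (GENCODE 128). Of their DNA-binding partners, Tead2 had 68.2 ± 1.86 (GENCODE 38.7), Tead1 40.3 ± 2.18, Tead4 15.1 ± 0.986 and Tead3 2.32 ± 0.151. The cofactor Vgll4 had 43.3 ± 5.28 and Vgll3 1 read.

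Of SMAD, ID and SNAI factors, 14 of 16 were expressed. The BMP effector Smad1 had 403 ± 15.5 TPM (GENCODE 256) and Smad5 55.5 ± 4.32, the TGF-beta effectors Smad3 40.7 ± 1.16 and Smad2 24.02 ± 1.19 (GENCODE 64.2), and the BMP target Id1 79.5 ± 4.21. Of the mesenchymal factors, Zeb1 had 35.3 ± 0.771, Snai2 11.9 ± 1.22, Snai1 6.38 ± 1.07 and Zeb2 4.45 ± 0.229 (GENCODE 2.54), and Twist1 was not listed. Of the hypoxia factors, Hif1a had 303 ± 12.3 TPM and Epas1, which endothelium is known for, 27.5 ± 1.59. Lef1 and Tcf7, nuclear effectors of Wnt, had no read, and Tcf7l1 had 21.1 ± 1.27.

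HOX genes, which record position along the body axis, were expressed over part of each cluster. Of 39 genes, 32 were listed and 21 expressed, which is 65.6% of those listed and near the 64.7% of all genes. With unlisted genes included, 8 of 11 were expressed in cluster A, 7 of 10 in B, 1 of 9 in C and 5 of 9 in D. In cluster C, Hoxc8 to Hoxc12 were not listed. Summed levels were 54.2 ± 2.22 TPM for A, 256 ± 9.71 for B, 2.24 ± 0.497 for C and 429.6 ± 21.1 for D. Hoxd8 had 203, 235 and 224 TPM, Hoxd9 141, 147 and 137 TPM and Hoxb7 120.04, 134 and 132 TPM, with no overlap between these neighbours. Hoxb8 (53.6 ± 2.54) and Hoxd10 (45.4 ± 1.87) came next. Positions 4 to 10 held 17 expressed genes of 22 and 717 ± 25.8 TPM. Positions 1 to 3 held 4 of 8 and 24.8 ± 1.08 TPM, and positions 11 to 13 held 0 of 9 and 0.368 ± 0.125 TPM. Of the last group, Hoxa11, Hoxb13, Hoxc11 and Hoxc12 were not listed. Unlisted genes entered all these sums as 0, although not listed is not by itself a count of 0. Within cluster D the border was abrupt, since Hoxd10 was followed by Hoxd11 with 1 read. HOX genes and their antisense transcripts overlap, and it is not stated whether counting used strand, so single low values are uncertain.

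**Figure D5:**
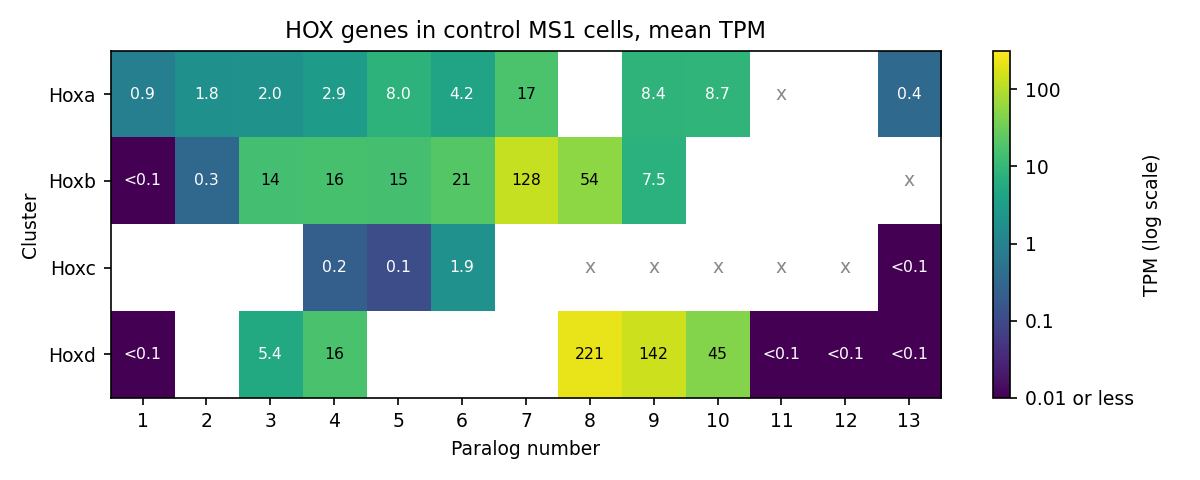
Mean TPM of HOX genes in control cells by cluster (rows) and paralog number (columns, 1 to 13), coloured on a log scale. White cells without text have no gene in the lists used, x marks genes not listed in the gene table, and the highest cells are Hoxd8, Hoxd9 and Hoxb7.

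Caveola genes were high as a group, 14 of 15 expressed with a median of 222 TPM. Cav1 had 878, 835 and 903 TPM, the caveola coat protein Ptrf 449 ± 13.99, Prkcdbp 418 ± 7.44 and Cav2 226 ± 10.9. The membrane-shaping Ehd4 (530.2 ± 12.5) and Ehd2 (312 ± 12.9) belong to the same group, and the muscle form Murc had no read. Among glucose transporters Slc2a1 led (472, 454 and 452 TPM), with Slc2a3 at 3 reads, and among lactate transporters Slc16a1 (86.8 ± 3.58).

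Proliferation genes were expressed throughout. All 26 listed proliferation genes were expressed and 17 were high. The replication helicase gene Mcm6 had 756, 796 and 829.7 TPM, the cyclin Ccnd1 727 ± 35.4, the topoisomerase Top2a 434 ± 26.7 and Mki67 130.4 ± 15.6. Genes of cell cycle inhibition were present at the same time, with Cdkn1a at 397, 383 and 381 TPM, Trp53 at 284 ± 13.1 TPM (GENCODE 159) and Cdkn2a at 8.78 ± 0.799.

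Replicates lay close together. Over 8857 genes of at least 10 TPM, the median coefficient of variation between the 3 libraries was 5.24% and its 95th percentile 12.6%, and 88 genes exceeded 20%. The variance between libraries was a median 3.09 times the counting variance over 10341 genes, so the spread was larger than counting alone gives. Pearson's r of log2(TPM + 1) between libraries across genes was 0.997 to 0.998, and genes are not independent replicates. Of the 10 genes with the largest spread, 8 were small RNA entries (6 microRNA loci, Snora81 and Snord33), 1 was the pseudogene Rplp2-ps1 and 1 the predicted gene Gm13826, which led with 51.9, 16.4 and 14.02 TPM. With those kinds left out, a choice made after the values were seen, the ubiquitin ligase Cbl had 16.9, 10.5 and 21.1 TPM (coefficient of variation 33%) and the mitochondrial tRNA ligase Lars2 316, 258 and 159 TPM (32.7%). Over all lists, 742 pairs of neighbouring levels were set beside each other, and in 205 their ranges over the 3 libraries overlapped.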

How the data were processed

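Poly-A RNA of the 3 control samples was sequenced on an Illumina HiSeq after column extraction, DNase treatment and preparation with a stranded kit, per the labels' protocols. The submitters' processing notes name bcl2fastq, FastQC, STAR, featureCounts, edgeR and the build mm10, and versions, settings and the use of strand in counting are not given in the sources used here. TPM were deposited by the authors per gene and library, scaled for gene length, for iGenomes models (used here) and GENCODE vM4 models (the alternative, matched by symbol for 23439 gene identifiers). A signal the authors name CPM was deposited beside them. Its values were whole multiples of 1 read (100.0% within a tolerance of 0.01), so reads per gene were recovered and serve to give depth and reads behind low values. Counts of reads across each junction were deposited per sample, as STAR writes them (6410070, 9767987 and 9695363 unique ones in the 3 control libraries). Control columns and junction files were taken by their sample titles.

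Means, SD, ranks, level classes and list counts were computed in Python 3.11.15 with pandas 2.3.3 and numpy 2.4.6. The reading of the tables and the variance ratio were tested on simulated data. Ranges over the 3 libraries stand in for a test, and values whose ranges overlap are not called different. The 85 gene lists hold 1777 entries, of which 1503 were listed, 17 under another symbol. The members and lists were chosen with earlier results of these data known. Named genes are the 25 highest, the 5 markers, the 10 of largest spread, up to 6 highest of each list, all of lists of at most 12, and up to 8 low ones in list order. Further low or absent genes, and relatives named beside a gene, were picked after their values were seen. A few genes that this rule would name are not reported here. Fn1 exon inclusion is the mean of the reads across the 2 inclusion junctions over that mean plus the reads across the skipping junction. Promoter and microRNA sequences came from RefSeq tables on GRCm38.p6, in which 25 of 45 pan-endothelial genes had a promoter.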

Additional observations from a re-analysis of the deposited data

How the results depend on the processing

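The number of expressed genes, 11357, lay between 10830 (minimum of 2 TPM) and 11848 (minimum of 0.5 TPM) over all alternatives run, and was 11223 with the GENCODE models and 11130 without small RNA entries, an alternative chosen after seeing the data. Class sizes, the share of the 100 highest genes and the expressed members of each vascular bed list stayed within 1.5 times their values under every alternative run. The median coefficient of variation of 5.24% was 5.83% over all expressed genes and 3.98 to 4.60% when 1 control library was left out. Of 695 list members of at least 1 TPM, 76 differed by more than 1.5 times between the gene models (10 higher and 66 lower with GENCODE). Over the 11385 genes of at least 1 TPM that also had a GENCODE value, 833 (7.32%) differed by more than 2 times. A version without mitochondrially encoded genes was not run, since none stood in the table used. No paired analysis was possible because a single group was described. Depth limits what a count of 0 says to about 3 reads per library.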

Other observations

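Further gene groups of the control cells had levels that belong to no bed or family above. Antigen presentation was split by class: 9 of 10 class I genes were expressed, with B2m at 2801 ± 109 TPM, H2-D1 at 404 ± 11.9 and H2-K1 at 148 ± 6.104, whereas 1 of 7 class II genes was (H2-DMb1, 7.27 ± 0.923), and H2-Aa, H2-Ab1 and H2-Eb1 had no read. H2 genes have close copies that may share reads. The class II master regulator Ciita had 2 reads and the invariant chain Cd74 2 reads. Of channels, the store-operated Orai2 (88.99 ± 1.89), Orai1 (60.7 ± 1.66) and their sensors Stim2 (64.9 ± 1.18) and Stim1 (45.1 ± 5.31) were expressed, as was the force sensor Piezo1 (48.7, 42.7 and 48.7 TPM). Its relative Piezo2 had 5 reads, Trpv4 49 reads and Trpc1 1 read. All 11 listed primary cilium genes were expressed, from Bbs1 (3.18 ± 0.3104) to Pkd2 (67.6 ± 4.16 (GENCODE 42.8)), and none was high. The water channel Aqp1 had 16.8 ± 0.752 TPM.

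The long RNA Xist, which coats the inactive X chromosome, had 129.9, 118 and 142 TPM in the 3 libraries, and Tsix, its antisense gene, had 36 reads in all. Whether counting used strand is not stated, so reads of the pair cannot be told apart. None of the 7 Y-linked genes of the list was listed in the gene table, and the 1 entry that the authors' annotation places on the Y chromosome, Erdr1, lies in the region shared with X and had 71 reads in all. Scavenger and transport receptors were expressed in 15 of 23 cases, with Scarf1 at 89.5 ± 0.981 TPM and Scarb1 at 56.7 ± 1.902 (GENCODE 33.6), while Vldlr and Msr1 had no read. Of fatty acid genes, the acyl-CoA synthetase Acsl5 (224 ± 13.3) and the transporter Slc27a1 (142 ± 7.397) were high, and the oxidation enzyme Cpt1a had 75.98 ± 3.38.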
